A study of Mus musculus with 28 samples.

Results

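The collagen genes were taken as every row of the count table whose symbol has the form of a collagen chain (Col, a type number, the letter a and a chain number), which gave 44 genes of 32594. RNA was sequenced from the whole pituitary of 28 C57BL/6J mice, 16 females and 12 males, 8 weeks old on arrival. Home cage controls had neither PSD nor restraint (4 females, 4 males), restraint mice were held for 20 min and taken 10 min later (4 females, 2 males), PSD mice went through paradoxical sleep deprivation on platforms over water for 12 h and were taken 18 h after it ended (4 females, 3 males), and PSD + restraint mice had both (4 females, 3 males). All 28 mice, controls included, had been adapted to the PSD tank on the days before. The stage of the estrous cycle was not given in the sources used here, the whole gland was used so that anterior, intermediate and posterior lobes were mixed, and restraint in males rests on 2 mice.

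Collagens are proteins of 3 chains wound into a triple helix, secreted or held in the membrane, and each gene here encodes 1 chain. Fibrillar collagens form the rods of connective tissue, FACIT collagens coat those fibrils, type IV collagens form the sheets of basement membranes, type VI collagens form beaded filaments, and transmembrane collagens stay anchored in the cell surface. In the pituitary, collagens surround the hormone cell cords and the sinusoidal capillaries that carry hypothalamic signals in and hormones out, and are made in large part by fibroblast-like and perivascular cells.

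Total counts per mouse lay between 14024465 and 52948531 (median 33389717). In all 28 mice the genes Xist and Ddx3y matched the labelled sex, and the 6 pituitary markers checked were at 83.6 CPM (counts scaled to library size) or more in every mouse. Mice of a group differed beyond counting noise in all 37 pairs. The labels name no batches, cages or tanks. The mice were housed in groups by sex and cage mates shared a PSD tank, so cage or tank cannot be told apart from treatment. The tests took the mice as independent.

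3 mice stood apart from the others in collagen genes. Male control 1 had Col25a1 at 2.61 CPM where the other 27 mice had 25.1 to 59.3, Col13a1 at 6.88 CPM against 19.3 to 58.1, Col23a1 at 3.74 CPM against 12.2 to 40.2 and Col19a1 at 1.06 CPM against 2.35 to 12.9. The 7 genes listed as markers of melanotropes and the neurointermediate lobe (the intermediate and posterior lobes together) were also lowest in this mouse, all 7 of them, with Pax7 at 11.3 CPM against 26.8 to 118 and Nkx2-1 at 0.0425 CPM against 1.67 to 5.44. The upper ends given for Col25a1, Col13a1, Col23a1 and Col19a1 are all from male PSD + restraint 2, which is not among the 3 mice. This male was also highest in the markers Scn7a (74.3 CPM) and Rax (8.40 CPM). Female PSD 3 had Col9a3 at 49.1 CPM where the others had at most 6.75, and Col8a2 at 28.8 CPM where they had at most 9.09. The same library held Ttr, the gene of transthyretin, a thyroid hormone carrier known from choroid plexus and liver, at 5335 CPM, with at most 6.28 elsewhere. Female PSD 1 had Col28a1 at 3.12 CPM against at most 1.48, Col12a1 at 20.2 CPM against at most 13.0, and Omp, olfactory marker protein, at 82.7 CPM against at most 12.2. Ttr and Omp were picked after their values were seen. Collagen results that rest on these mice are given with and without them, a choice made after seeing the data. Without them, the female PSD group holds mice 2 and 4 alone, so fewer calls there may also reflect fewer mice, which was not tested.

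**Figure D1:**
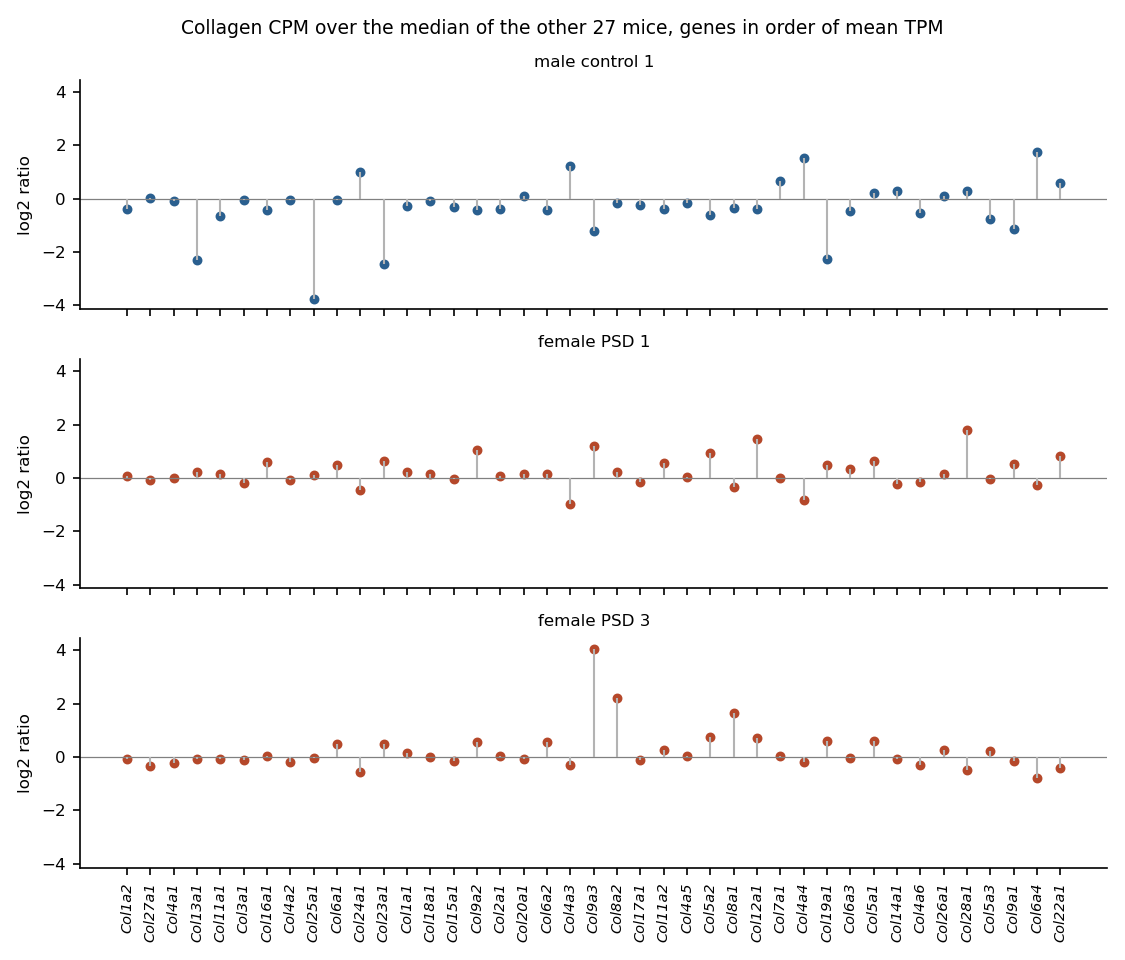
Log2 ratio (vertical axis) of the CPM of each collagen gene in male control 1, female PSD 1 and female PSD 3 to the median of the other 27 mice, for the 41 collagen genes with a mean of at least 10 counts, in order of falling mean level. Each point is 1 gene: Col25a1, Col23a1, Col13a1 and Col19a1 lie lowest in male control 1 (-3.76, -2.45, -2.30 and -2.26), Col28a1 highest in female PSD 1 (1.78), and Col9a3 and Col8a2 highest in female PSD 3 (4.06 and 2.23).

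Which collagens the pituitary expresses was read from TPM (counts scaled to transcript length and library, so that genes can be compared). Col1a2, the alpha 2 chain of type I collagen, led by far, with a mean level of 117 TPM over all mice. Col27a1, a fibrillar collagen known from cartilage, followed at 27.04 TPM, then Col4a1, a chain common to most basement membranes, at 23.3 TPM, and Col13a1, a transmembrane collagen known from neuromuscular junctions, at 20.7 TPM. The lowest were Col10a1, the collagen of hypertrophic cartilage, at 0.0392 TPM, Col6a6 at 0.0496 TPM, Col6a5 at 0.0609 TPM and Col22a1 at 0.103 TPM. Col10a1 had at most 6 counts in a mouse and was the 1 gene of the 44 that did not pass the filter on low counts, so 43 were tested.

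By structural class, the 11 fibrillar genes held a median of 53.8% of the summed collagen TPM of a mouse. The 4 transmembrane genes held 12.2%, the 6 type IV genes 11.5%, the 9 FACIT genes 8.81%, the 6 type VI genes 4.77%, the 2 multiplexins, collagens of basement membrane zones whose ends are cut off as fragments, 4.20%, and the 3 short-chain genes 1.46%. Col7a1, the chain of the anchoring fibrils below epithelia, held 0.428%, and Col26a1 and Col28a1 together 0.501%. Of the transmembrane genes, Col13a1, Col25a1 and Col23a1 ranked 4, 9 and 12 among the 44 genes by TPM. The share of the transmembrane class ranged from 3.29% to 18.5% between mice. The low end is male control 1 alone, and the other 27 mice had 6.75% or more.

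The chains of 1 collagen type were compared as ratios of TPM within a mouse, first with the mean transcript length of each gene and then with its longest transcript, a choice added after seeing the data. Type I collagen is known as a trimer in which alpha 1 chains outnumber alpha 2 chains, yet Col1a2 lay above Col1a1 in every mouse, by a ratio of 10.0 to 36.6 (median 16.3) in females and 7.04 to 12.7 (median 9.76) in males. With the longest transcript the median over all mice went from 12.3 to 17.6. The type IV pairs were closer. Col4a1 lay 1.48 to 1.92 times above its partner Col4a2, and 1.14 to 1.48 times with the longest transcript. Col4a3 lay 2.48 to 4.25 times above Col4a4, with a median of 2.98 that went to 1.80 with the longest transcript, and Col4a5 1.85 to 3.40 times above Col4a6 (median 2.42, going to 2.97). In type VI, Col6a1 lay 1.81 to 2.89 times above Col6a2 (median 2.29, going to 1.53) and 5.33 to 12.9 times above Col6a3 (median 7.54, going to 9.90), its partners in the main trimer. Col11a1 lay 3.75 to 6.88 times above Col11a2 (median 4.95, going to 2.96). Col5a1 lay below Col5a2 in most mice, at a ratio of 0.367 to 1.04 (0.460 to 1.30 with the longest transcript). Col8a1 lay below Col8a2 in every mouse, at 0.366 to 0.897, but with the longest transcript the ratio ran from 0.525 to 1.29. Ratios between genes also carry differences in transcript use and in how reads were assigned, whose part was not tested. The starts of Col4a1 and Col4a2 overlap on opposite strands, as do parts of Col18a1 with Slc19a1, Col9a3 with Tcfl5 and Col10a1 with Nt5dc1. Whether counting used strand is not given in the sources used here, so the counts from those stretches may be affected.

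**Figure D2:**
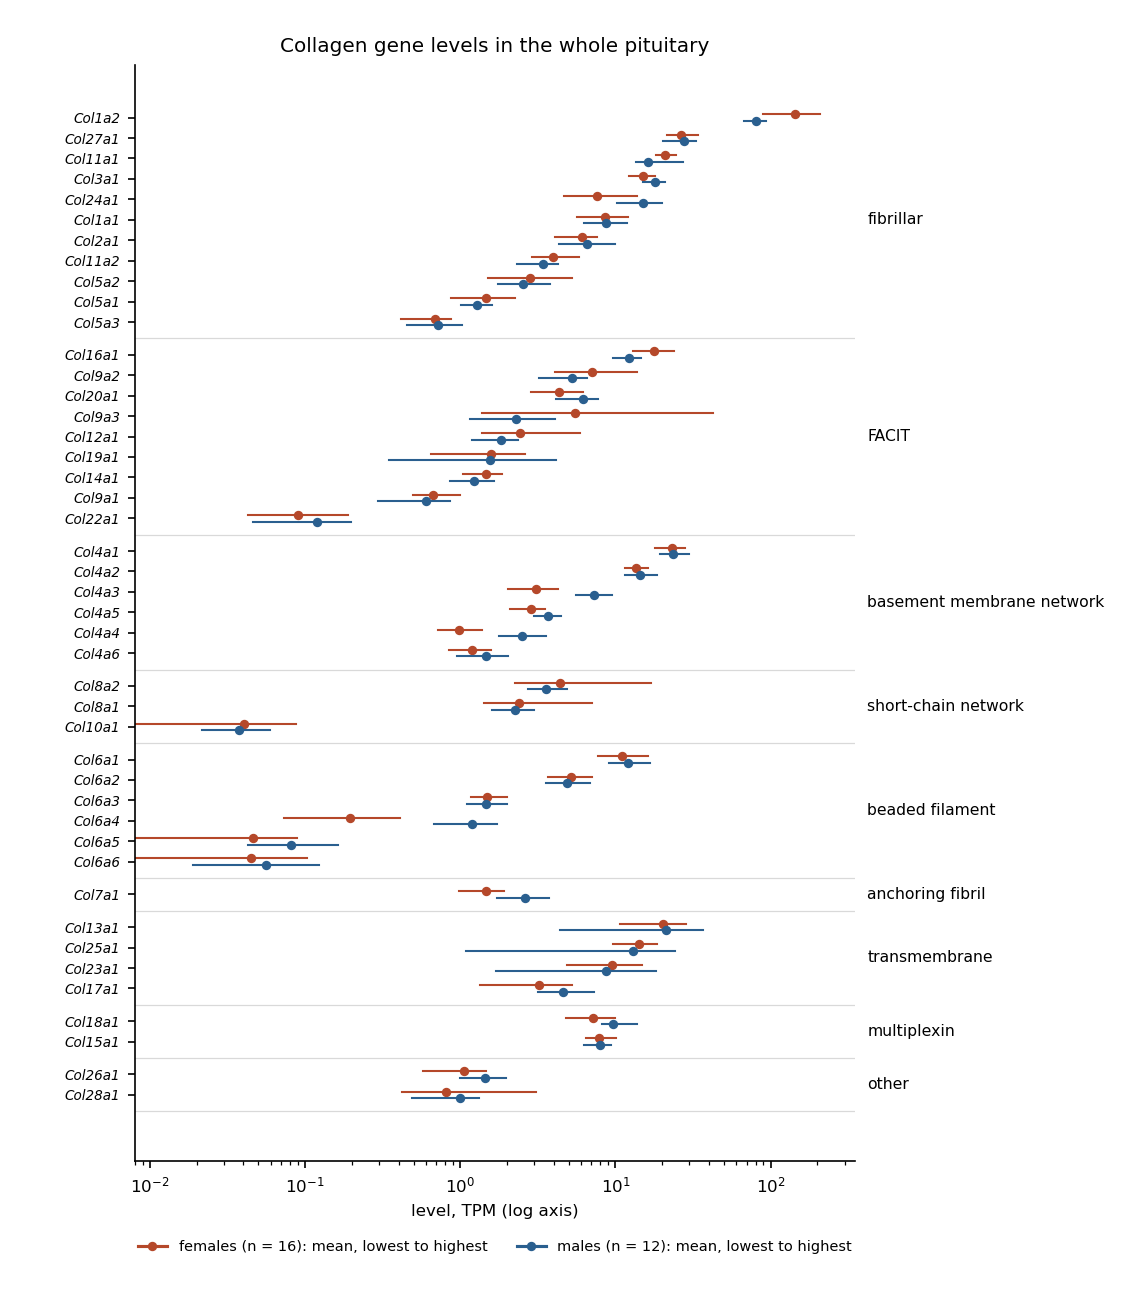
Level of the 44 collagen genes in TPM (horizontal log axis), grouped by structural class, for 16 females and 12 males. Points are means and lines run from the lowest to the highest mouse, reaching the left edge for Col10a1, Col6a5 and Col6a6, which were at 0 in 1 female each. Col1a2 lies highest (means 144 TPM in females and 80.6 TPM in males). Apart from the lines that reach the left edge, the longest belong to Col9a3 in females and Col25a1 and Col19a1 in males.

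Whether collagen genes differ between the sexes was tested across all mice, with treatment in the model. A gene was called where the Benjamini-Hochberg adjusted p of edgeR's quasi-likelihood test was at most 0.05 and the fold change at least 1.25 in either direction. Of the 43 collagen genes 16 were called, against 14.9% of all 18936 genes tested. 6 were higher in females (Col1a2, Col9a2, Col11a1, Col12a1, Col14a1 and Col16a1), against 7.11% of all genes, and 10 were lower (Col4a3, Col4a4, Col6a4, Col6a5, Col7a1, Col17a1, Col18a1, Col20a1, Col24a1 and Col26a1), against 7.79% of all genes. The median log2 fold change of the 43 was 0.02, beside 0.01 for all genes. 4 collagen genes had no overlap between the 16 females and the 12 males, Col1a2 above and Col4a3, Col4a4 and Col6a4 below, where 2.08% of all genes had none. Without the 3 mice that stood apart 16 were called as well (13.7% of all genes), of which 14 were the same, with Col4a5 and Col28a1 in place of Col6a5 and Col12a1. In whole tissue, fewer cells of a type and less RNA per cell cannot be told apart.

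Among the fibrillar genes, Col1a2 (chr6:4504814-4541544) had 162 to 387 CPM in females, with a median of 247 and a mean of 255 ± 74.6 (SD, n = 16). In males it had 107 to 156 CPM, with a median of 137 and a mean of 134 ± 17.4 (SD, n = 12). Every female lay above every male, and females spread more widely, with a log2 fold change of 0.87 (SE 0.10, adjusted p = 1.23e-07). Its partner Col1a1 had medians of 11.9 CPM in females and 10.9 CPM in males with overlapping ranges, and a log2 fold change of 0.05 (SE 0.11, adjusted p = 0.752). Of the genes known for work on procollagen, the chaperone gene Serpinh1 (HSP47) was higher in females by 0.41 (SE 0.06, adjusted p = 1.48e-05).

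Col24a1 (chr3:145292472-145552011), a fibrillar collagen known from bone and brain, went the other way. Females had 9.12 to 25.4 CPM (median 13.8) and males 18.8 to 34.7 CPM (median 27.6). Of the 16 females 2 lay above the lowest male, and the log2 fold change was -0.90 (SE 0.09, adjusted p = 6.43e-09). Col11a1, a fibrillar chain known for nucleating cartilage fibrils, had 36.1 to 48.9 CPM (median 42.7) in females and 26.7 to 51.7 CPM (median 30.0) in males, with a log2 fold change of 0.45 (SE 0.07, adjusted p = 1.53e-05). Col3a1, Col5a1 and Col11a2 had adjusted p-values of 0.0132, 0.0358 and 0.00430 but log2 fold changes of -0.18, 0.27 and 0.30, below the fold change threshold. Col27a1, the second most abundant chain, had medians of 87.3 CPM in both sexes.

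Among the type IV genes, Col4a3 and Col4a4 were lower in females and Col4a1 and Col4a2 were not called. Col4a3 (chr1:82586921-82722059) and Col4a4 (chr1:82448423-82586849) encode chains that join with that of Col4a5 in a network known from the kidney filter and the inner ear. Col4a3 had 4.57 to 9.09 CPM (median 6.88) in females and 11.9 to 19.5 CPM (median 15.3) in males. Col4a4 had 3.06 to 5.77 CPM (median 4.25) in females and 7.74 to 14.3 CPM (median 10.3) in males. Neither gene overlapped between the sexes. The log2 fold changes were -1.14 (SE 0.10, adjusted p = 4.84e-10) and -1.26 (SE 0.09, adjusted p = 4.39e-11).

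These genes sit head to head on opposite strands with 71 bases between their GENCODE starts. The stretch is printed because both neighbours moved together, with the plus strand running from Col4a4 on the left to Col4a3 on the right and CACCC in capitals:
chr1:82586850-82586920 (GRCm38, plus strand): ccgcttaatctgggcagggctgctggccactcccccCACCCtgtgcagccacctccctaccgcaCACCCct
It is 69.0% G and C and holds CACCC on either strand at 2 places and the estrogen response element core GGTCA at 0 places. The longer window before the Col4a4 start, counted further below, runs on past the Col4a3 start. It holds GGTCA at 2 places, both outside the stretch printed here. Of 32851 RefSeq promoters of GRCm38.p6, 20.3% hold CACCC on either strand in the last 71 bases before the start. Such a match is a description of letters and not a binding site.

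The other type IV pairs are also arranged head to head, and neither was called over all 28 mice. Col4a5 and Col4a6, which lie on the X chromosome with 1308 bases between their starts, had log2 fold changes of -0.30 (SE 0.05, adjusted p = 0.000115) and -0.24 (SE 0.09, adjusted p = 0.0466), lower in females but below the fold change threshold. Without the 3 mice that stood apart Col4a5 was called, at -0.34 (SE 0.06, adjusted p = 5.29e-05). Col4a1 and Col4a2 on chromosome 8 had 0.05 (SE 0.06, adjusted p = 0.517) and 0.00457 (SE 0.06, adjusted p = 0.962). Col4a1 had medians of 37.6 CPM in females and 36.8 CPM in males. In the list of 10 basement membrane partners, 2 were called, against 14.9% of all genes, and both were lower in females. They were Lama1 (log2 fold change -1.05, SE 0.11, adjusted p = 2.98e-08) and Lama2 (-0.37, SE 0.07, adjusted p = 0.000221), laminin alpha chains.

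Among the type VI genes, Col6a4 (chr9:105989454-106096783) showed the greatest difference of all 43. It had 0.162 to 0.826 CPM (median 0.363) in females and 1.43 to 3.12 CPM (median 2.31) in males, without overlap and with a log2 fold change of -2.53 (SE 0.20, adjusted p = 1.81e-10). Its neighbours on chromosome 9 in the same orientation, Col6a5 and Col6a6, also encode long alternative chains of type VI. Col6a5 had at most 0.406 CPM in females and 0.670 CPM in males, and its call at a log2 fold change of -0.72 (SE 0.28, adjusted p = 0.0441) was lost when any of 17 of the 28 mice was left out, with no filter on low counts, and without the 3 mice that stood apart (-0.62, SE 0.27, adjusted p = 0.0825). Col6a6 had a log2 fold change of -0.21 (SE 0.32, adjusted p = 0.657). Col6a1 and Col6a2, the abundant type VI chains, had log2 fold changes of -0.07 (SE 0.09, adjusted p = 0.615) and 0.15 (SE 0.09, adjusted p = 0.193).

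The FACIT genes were mixed. Col16a1, the most abundant of them, had 20.3 to 40.0 CPM (median 26.2) in females and 15.2 to 21.2 CPM (median 18.1) in males, with a log2 fold change of 0.59 (SE 0.09, adjusted p = 1.26e-05). Col9a2, a type IX chain of cartilage, had 4.73 to 13.1 CPM (median 7.20) in females and 3.47 to 6.48 CPM (median 5.24) in males. It was higher in females by 0.50 (SE 0.11, adjusted p = 0.000706), and by 0.39 (SE 0.09, adjusted p = 0.00297) without the 3 mice that stood apart. Col14a1, a coat of type I fibrils, was higher by 0.35 (SE 0.10, adjusted p = 0.00748), with 4.01 to 7.87 CPM (median 5.99) against 3.29 to 6.01 CPM (median 4.48). The ranges of both overlapped. The call of Col14a1 was lost when female PSD 4, male restraint 2 or male control 4 was left out. Col12a1, also a coat of type I fibrils, was called at 0.45 (SE 0.14, adjusted p = 0.0133), and without the 3 mice that stood apart at 0.27 (SE 0.10, adjusted p = 0.0483) it was below the fold change threshold. Col20a1 was lower in females, with 6.71 to 12.2 CPM (median 9.78) against 8.58 to 17.4 CPM (median 12.6) and a log2 fold change of -0.43 (SE 0.10, adjusted p = 0.00175). Col9a3 had a log2 fold change of 0.86 (SE 0.35, adjusted p = 0.0610), and 0.29 (SE 0.13, adjusted p = 0.0865) without the 3 mice.

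Col7a1, the anchoring fibril chain, was lower in females, with 2.31 to 4.16 CPM (median 3.46) against 3.66 to 8.62 CPM (median 5.92) and a log2 fold change of -0.76 (SE 0.12, adjusted p = 1.93e-05). Of the transmembrane genes, Col17a1, the collagen of hemidesmosomes, was lower by -0.48 (SE 0.12, adjusted p = 0.00231), with 2.85 to 10.5 CPM (median 6.11) against 5.51 to 13.7 CPM (median 7.42). Col13a1, Col23a1 and Col25a1 were not called, at log2 fold changes of 0.00441, 0.18 and 0.23 (adjusted p = 0.988, 0.476 and 0.414), and at -0.09, 0.02 and 0.11 (adjusted p = 0.588, 0.917 and 0.482) without the 3 mice that stood apart. Of the multiplexins, Col18a1, whose end is released as endostatin, had 13.1 to 23.0 CPM (median 18.0) in females and 19.4 to 33.4 CPM (median 22.6) in males and was lower by -0.37 (SE 0.07, adjusted p = 0.000223). Col15a1 had medians of 11.5 CPM in both sexes. Col26a1 was lower by -0.36 (SE 0.12, adjusted p = 0.0168), on 11 to 74 counts a mouse. By DESeq2, where fold changes were shrunken (pulled toward no change) unlike those of edgeR, its log2 fold change was -0.32 (adjusted p = 0.0224), just short of the threshold. Col8a1 and Col8a2, the short-chain collagens of the corneal endothelium and of vessels, were not called, at log2 fold changes of 0.11 and 0.29 (adjusted p = 0.628 and 0.309), and at -0.06 and 0.01 (adjusted p = 0.628 and 0.960) without the 3 mice. Col28a1, a chain known from peripheral nerve, was not called at -0.36 (SE 0.21, adjusted p = 0.182) over all mice, and was called at -0.56 (SE 0.14, adjusted p = 0.00375) without the 3 mice.

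**Figure D3:**
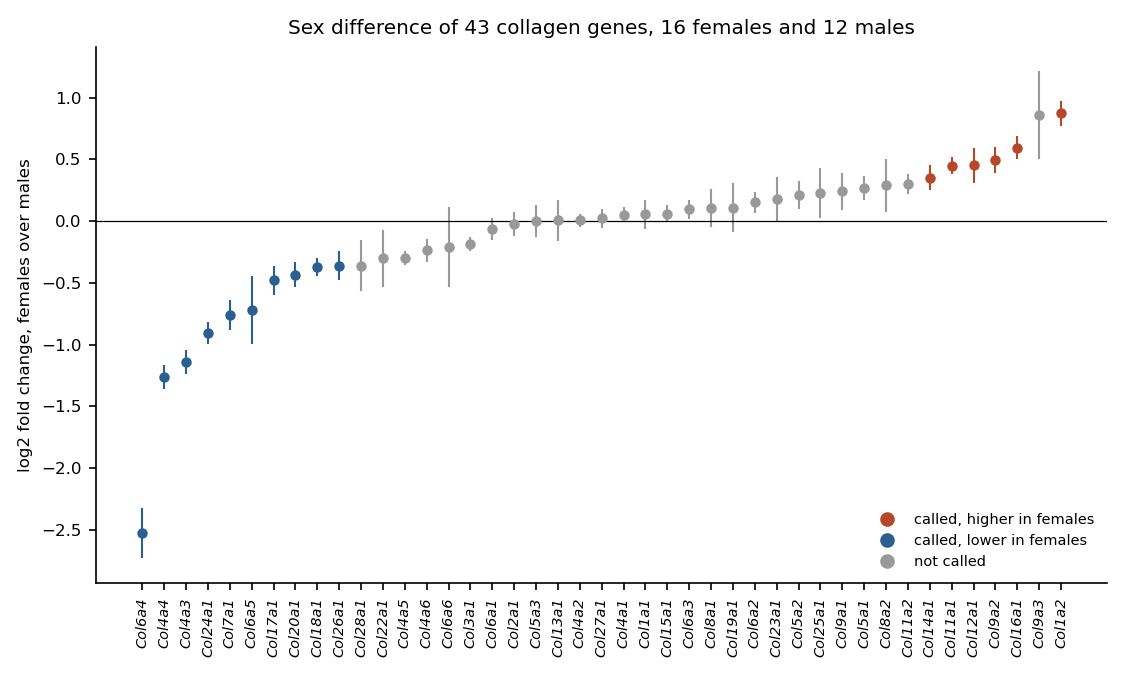
Log2 fold change of females over males (vertical axis) with its standard error for the 43 collagen genes tested in 28 mice, in order of size. Coloured points were called: Col6a4 at -2.53 lies furthest below 0 and Col1a2 at 0.87 highest, while Col9a3 at 0.86 has the widest bar and was not called.

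The sex difference was also read within each treatment, in a model that gave each sex and treatment its own mean. In controls 11 of 43 collagen genes were called, against 10.7% of all genes, in restrained mice 9 (8.02%), in PSD mice 8 (8.96%) and in PSD + restraint mice 5 (4.10%). Col4a3, Col4a4, Col6a4 and Col24a1 were called in all 4 treatments. For Col4a3 the log2 fold change lay between -1.26 and -1.08, for Col4a4 between -1.36 and -1.20, for Col6a4 between -2.69 and -2.35 and for Col24a1 between -1.24 and -0.70. Col1a2 was called in 3 of them, at 1.07 in controls (adjusted p = 6.54e-05), 1.23 after restraint (adjusted p = 0.000457) and 0.74 after PSD + restraint (adjusted p = 0.0147), and had 0.51 after PSD (adjusted p = 0.0588). Of the 8 genes called in PSD mice, Col9a2, Col9a3 and Col12a1 were called in no other treatment, and female PSD 1 and 3 hold their highest values. Without the 3 mice that stood apart, 4 were called in PSD mice (3.99% of all genes), namely Col4a3 at -0.92, Col4a4 at -1.32, Col6a4 at -2.95 and Col24a1 (adjusted p = 6.54e-05). Col9a2, Col9a3, Col11a1 and Col12a1 then had 0.45, 0.51, 0.49 and 0.14 (adjusted p = 0.260, 0.374, 0.0617 and 0.807). In controls 13 were then called (8.77%), in restrained mice 11 (8.97%) and in PSD + restraint mice 6 (4.56%).

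**Figure D4:**
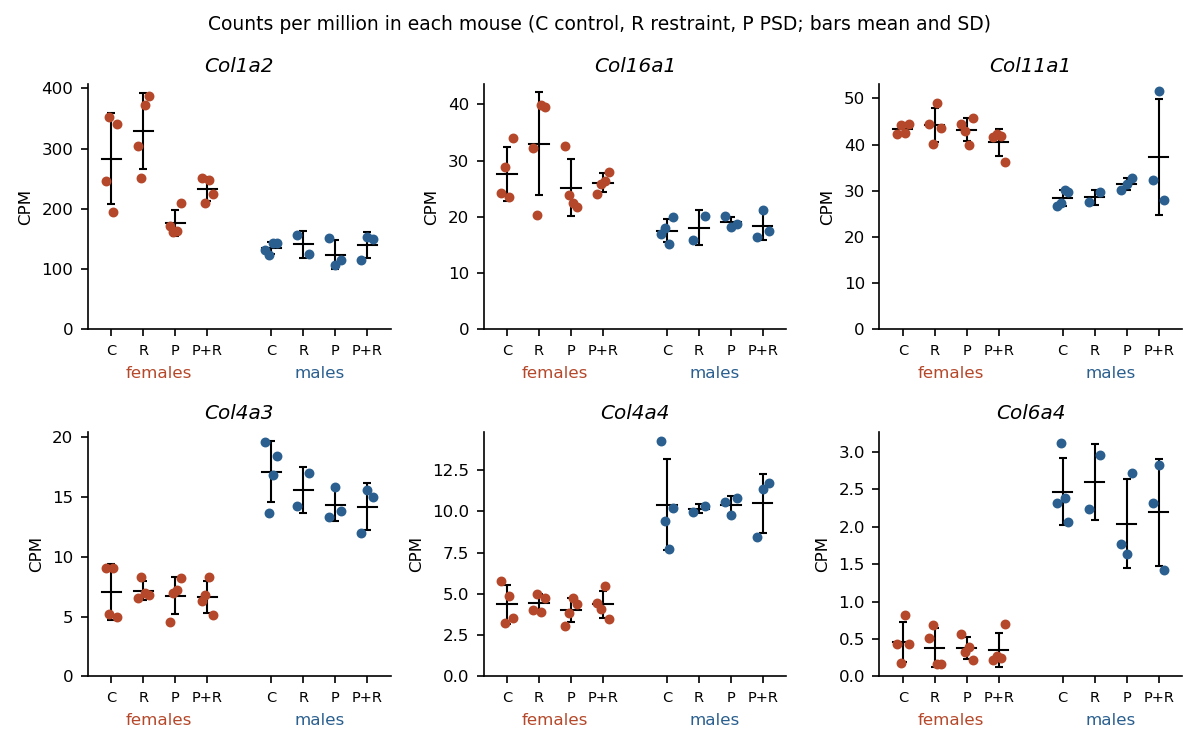
CPM in each mouse (points) for Col1a2, Col16a1, Col11a1, Col4a3, Col4a4 and Col6a4 in the 8 groups, with the mean and SD as bars. C is home cage control, R restraint and P PSD. Col1a2 lies higher in females in all treatments, and Col4a3, Col4a4 and Col6a4 lie lower in females in all treatments.

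Sequence before the start was compared between called and other members. RefSeq windows of 250 bases were found for 35 of the 44 genes (38 windows). The letters GGTCA, or TGACC on the other strand, the core of an estrogen response element, stood in 36.8% of the 38 windows and in 35.2% of all 32851. They stood in 7 of the 9 windows of genes lower in females, 2 of the 4 of genes higher in females and 5 of the 24 of genes not called, and the paired element, GGTCA and TGACC with 3 letters between them, stood in 0 of these. The GC box GGGCGG stood in 57.9% of the 38 windows and 32.7% of all, CACCC in 68.4% and 52.0%, CCAAT in 34.2% and 33.8%, and TATAAA in 13.2% and 12.4%, each on either strand. Col24a1 held GGTCA at 3 places, shown in capitals in the 250 bases before its start:
chr3:145292222-145292471 (GRCm38, plus strand): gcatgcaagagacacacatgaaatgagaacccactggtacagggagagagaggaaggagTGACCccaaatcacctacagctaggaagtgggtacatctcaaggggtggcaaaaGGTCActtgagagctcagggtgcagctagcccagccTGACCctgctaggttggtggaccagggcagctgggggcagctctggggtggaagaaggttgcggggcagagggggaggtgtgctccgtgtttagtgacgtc
The windows give letters alone and say nothing of whether a receptor binds there.

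Markers of cell types were also called between the sexes, and their counts stand beside 14.9% of all genes called. The summed CPM of the 2 lactotrope markers lay between 96962 and 231837 in females and between 31014 and 45966 in males, and both were called higher in females. Both somatotrope markers (60060 to 121856 CPM in females, 109861 to 226447 in males), both thyrotrope markers (209 to 545 and 269 to 577) and 2 of 4 gonadotrope markers (560 to 1227 and 1537 to 2103) were called lower. Of the 6 fibroblast markers 2 were called, Dcn lower in females (log2 fold change -0.39, adjusted p = 3.56e-06) and Dpt higher (0.94, adjusted p = 0.0182), and their sum lay between 104 and 153 CPM in females and 142 and 183 in males. The 6 endothelial markers summed to 165 to 232 CPM in females and 162 to 226 in males. Of these 0 were called, though all 6 had an unadjusted p under 0.05 by edgeR. Of the mural markers 1 of 6 was lower, of the stem and folliculostellate markers 1 of 3 was higher, of the cartilage and bone markers 2 of the 3 tested were higher, at a sum of at most 2.60 CPM, and of the red blood cell markers 1 of 2 was lower. Of the 7 markers of melanotropes and the neurointermediate lobe 1 was higher, Pax7 (log2 fold change 0.57, adjusted p = 0.0123), with a median of 0.09 and a sum of 37304 to 167289 CPM in females and 11659 to 128276 in males. The macrophage and corticotrope lists had median log2 fold changes of 0.04 and 0.03. No marker of these lists was at 0 in all mice of a sex. Their part in the sex difference of the collagen genes was not tested.

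The genes that make, cut, bind and degrade collagen were counted from fixed lists. Their calls between the sexes stand beside 14.9% of all genes called. Of 19 genes for prolyl and lysyl modification, chaperones and export, 4 were called higher in females, among them P3h3 (log2 fold change 0.33, SE 0.04, adjusted p = 6.72e-07) and Serpinh1, and 1 lower (P4ha2, a prolyl hydroxylase, log2 fold change -0.53, SE 0.07, adjusted p = 3.85e-07). Of 12 genes tested for propeptide cleavage and cross-linking, Lox, lysyl oxidase, was higher (0.58, SE 0.12, adjusted p = 0.000557), and Pcolce and Pcolce2, enhancers of propeptide cleavage, were lower (-0.52 and -0.99, adjusted p = 2.06e-05 and 6.29e-06). Of 9 receptors tested 1 was higher, and 3 were lower with Itga2, the integrin alpha 2 chain, first (-1.44, SE 0.17, adjusted p = 2.32e-07). Of 12 genes tested for degradation and its inhibitors, 1 was higher (Timp2, 0.45, SE 0.06, adjusted p = 1.01e-06) and 4 lower, with Mmp8, neutrophil collagenase, first (-1.02, SE 0.10, adjusted p = 5.97e-09). Of 10 genes of fibril-associated matrix, Fmod was higher (0.82, SE 0.24, adjusted p = 0.00829) and Dcn lower. The medians of these 5 lists ran from -0.11 to 0.15.

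Whether restraint or PSD changed collagen genes was tested against the home cage controls, which the comparisons share, so that they are not independent of each other. Across all mice, restraint called 0 of 43, against 1.14% of all genes, and 1 of the 43 had an unadjusted p under 0.05. Here and below, percentages are of genes called, and counts by unadjusted p have no share of all genes beside them. PSD called 1 of 43, against 0.671%, and PSD + restraint 4 of 43, against 5.46%. The median log2 fold changes of the 43 were 0.04, 0.11 and 0.13, beside 0.000555, 0.00678 and 0.00130 for all genes. After PSD + restraint, Col17a1, Col19a1 and Col23a1 were higher and Col24a1 was lower, and after PSD alone Col17a1 was higher. Without the 3 mice that stood apart, PSD called 0 (0.0853% of all genes, and 9 of 43 had an unadjusted p under 0.05) and PSD + restraint 6 (6.01%), the same 4 and in addition Col8a1 (0.45, SE 0.11, adjusted p = 0.00650) and Col12a1 (0.40, SE 0.13, adjusted p = 0.0499), both higher.

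Col17a1 (chr19:47646344-47692094), the transmembrane collagen of hemidesmosomes, had 2.85, 3.79, 3.80 and 4.39 CPM in control females and 5.02, 8.68, 9.04 and 9.39 CPM in PSD + restraint females. Control males had 5.51, 5.69, 6.75 and 7.15 CPM and PSD + restraint males 11.2, 13.3 and 13.7 CPM. In both sexes all mice after PSD + restraint lay above all controls. The log2 fold change was 1.05 over all mice (SE 0.16, adjusted p = 6.44e-05), 1.12 in females (SE 0.24, adjusted p = 0.0204) and 1.03 in males (SE 0.15, adjusted p = 0.00317). It was 1.05 (SE 0.17, adjusted p = 0.000250) over all mice without the 3 that stood apart. The call in females was lost when PSD + restraint mouse 1, 2 or 3 or control mouse 2 or 4 was left out, while the call in males was made whichever mouse was left out.

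After 1 treatment alone Col17a1 was less clear. Restraint females had 4.88, 5.03, 6.22 and 8.82 CPM and PSD females 6.03, 6.19, 6.27 and 10.5 CPM, all above the control females. Restraint males had 6.26 and 9.28 CPM and PSD males 6.93, 7.68 and 8.82 CPM, overlapping the control males. Over all mice the log2 fold change was 0.55 after restraint (SE 0.17, adjusted p = 0.107) and 0.66 after PSD (SE 0.16, adjusted p = 0.0487). The call after PSD was lost when any of 19 of the 28 mice was left out, and without the 3 mice that stood apart.

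Col19a1 (chr1:24261890-24587472), a FACIT known from interneurons and muscle, had 2.35, 2.37, 3.70 and 5.23 CPM in control females and 4.54, 4.91, 6.71 and 7.88 CPM after PSD + restraint. Control males had 1.06, 3.22, 3.48 and 4.01 CPM and PSD + restraint males 3.16, 6.61 and 12.9 CPM. The groups overlapped in both sexes. The log2 fold change over all mice was 1.09 (SE 0.27, adjusted p = 0.00895), and 0.94 (SE 0.25, adjusted p = 0.0154) without the 3 mice that stood apart. After PSD alone females had 5.09, 6.86, 7.41 and 9.01 CPM, of which 3 lay above every control female. PSD males, at 5.10, 5.98 and 6.05 CPM, all lay above every control male. The log2 fold change after PSD was 1.01 (SE 0.27, adjusted p = 0.0651), and 0.82 (SE 0.27, adjusted p = 0.262) without the 3 mice.

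Col23a1 (chr11:51289920-51583918), a transmembrane collagen, had 12.8, 15.7, 17.3 and 20.2 CPM in control females and 25.1, 26.1, 27.2 and 30.3 CPM after PSD + restraint, without overlap. Control males had 3.74, 17.9, 19.1 and 20.5 CPM and PSD + restraint males 13.1, 26.1 and 40.2 CPM, which overlapped. The log2 fold change over all mice was 0.76 (SE 0.24, adjusted p = 0.0422). The call was lost when any of 9 of the 28 mice was left out, among them male PSD + restraint 2, which had the highest value. Without the 3 mice that stood apart, and with that male kept, the log2 fold change was 0.61 (SE 0.18, adjusted p = 0.0301).

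The neurointermediate lobe markers moved with these results. Of the 7 markers 2, Pomc and Pcsk2, were called higher after PSD + restraint and 0 after PSD, where 2 had an unadjusted p under 0.05, with medians of 0.64 and 0.30. Their summed CPM ran from 37304 to 69260 in control females, 40088 to 95999 after restraint, 71410 to 167289 after PSD and 71601 to 103261 after PSD + restraint. In males it ran from 11659 to 64653, 39806 to 69487, 67006 to 103265 and 67393 to 128276, and no marker was at 0 in a whole group. Nearly all of this sum is Pomc, the hormone precursor gene that corticotropes also express. The other 5 markers, without Pomc and Pcsk2, summed to 89.3 to 117, 77.1 to 146, 97.4 to 193 and 116 to 170 CPM in the same order in females and to 14.1 to 117, 94.7 to 105, 85.5 to 97.4 and 70.1 to 157 CPM in males, where PSD males lay within the range of the control males. With a score of these markers in the model, Col17a1 kept a log2 fold change of 0.89 after PSD + restraint (SE 0.18, adjusted p = 0.00165) and Col24a1 -0.43 (SE 0.13, adjusted p = 0.0470), while Col19a1 went to 0.46 (SE 0.19, adjusted p = 0.164) and Col23a1 to 0.16 (SE 0.13, adjusted p = 0.519), both no longer called. Col17a1 after PSD alone was then no longer called either, at 0.53 (SE 0.17, adjusted p = 0.151), nor was Col17a1 in females after PSD + restraint, at 0.58 (SE 0.19, adjusted p = 0.326). With the score PSD + restraint thus called 2 of 43 over all mice (3.80% of all genes) and 0 in females (0.282%). The lowest score, -3.11, was that of male control 1, while the lowest in any other group was -0.556. The score was not fitted without this mouse. It also includes Pomc and Pcsk2, themselves called after PSD + restraint, so lobe content and a treatment response cannot be told apart in it. Markers of other cell types were called too. Of 6 mural markers 2 were higher after PSD (0.671% of all genes called) and 2 after PSD + restraint (5.46%). After PSD + restraint 1 of 6 fibroblast and 1 of 4 macrophage markers were higher, and 1 of the 3 cartilage and bone markers tested was lower. The part of these cell types in the collagen results was not tested.

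Col24a1 fell after PSD + restraint. Control females had 14.1, 16.2, 17.3 and 25.4 CPM and PSD + restraint females 10.5, 11.7, 12.3 and 12.3 CPM, without overlap. Control males had 23.7, 29.1, 31.4 and 34.7 CPM and PSD + restraint males 18.8, 23.4 and 24.5 CPM, which overlapped. The log2 fold change over all mice was -0.53 (SE 0.12, adjusted p = 0.00501), and it stayed called when each mouse was left out in turn. PSD alone gave -0.43 (SE 0.12, adjusted p = 0.0774).

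**Figure D5:**
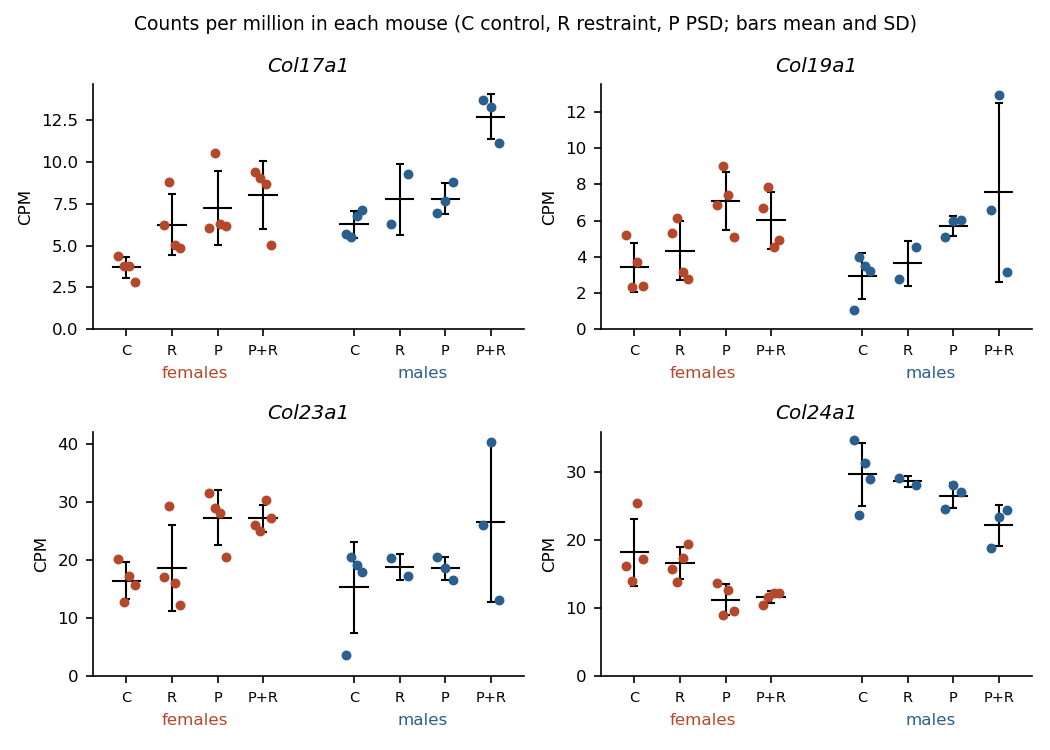
CPM in each mouse (points) for Col17a1, Col19a1, Col23a1 and Col24a1 in the 8 groups, with the mean and SD as bars. C is home cage control, R restraint and P PSD. Col17a1 lies above all controls of the same sex after PSD + restraint, the low control male of Col23a1 at 3.74 CPM is male control 1, and Col24a1 lies lower in females than in males and lower after PSD + restraint than in controls.

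The abundant chains were not called after any treatment by edgeR. Col1a2 had 195, 247, 340 and 352 CPM in control females, 252, 305, 372 and 387 CPM after restraint, 162, 163, 171 and 209 CPM after PSD and 209, 224, 248 and 251 CPM after PSD + restraint. PSD females lay below the control females but for 1 control mouse within their range, with a log2 fold change of -0.68 (SE 0.17, adjusted p = 0.109). In males, with 123 to 144 CPM in controls and 107 to 151 CPM after PSD, it was -0.12 (SE 0.13, adjusted p = 0.848). The difference between the sexes in this response was -0.56 (SE 0.24, adjusted p = 0.411). Col4a1 and Col4a2 had log2 fold changes after PSD of -0.28 (SE 0.08, adjusted p = 0.0784) and -0.23 (SE 0.08, adjusted p = 0.130) over all mice.

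In females alone, restraint called 0 of 43 collagen genes (0.543% of all genes, and 1 of 43 had an unadjusted p under 0.05), PSD 0 (0.0277%, and 13 of 43 had an unadjusted p under 0.05, or 7 without the 3 mice that stood apart), and PSD + restraint 1, Col17a1 (2.20%). The percentages are of genes called, and how many of all genes had an unadjusted p under 0.05 is not given here. Without the 3 mice that stood apart, PSD + restraint called 3 in females, Col17a1, Col24a1 and Col8a1 (2.17%), and PSD 0 (0%). In males alone they called 0 (0.296%, unadjusted 3), 0 (0.00547%, unadjusted 4) and 1, Col17a1 (2.56%). DESeq2 was run with the model and call limits of the study's methods, but on all genes with a count, without the study's limit on mean TPM. Unlike those of edgeR, its fold changes for sex and treatment were shrunken (pulled toward no change), as in those methods. Its percentages are of 24933 genes in females, 24662 in males and 25636 over all mice, and its 44 collagen genes include Col10a1. It called more after PSD. In females it called 6 of 44 (1.60%), where Col9a3, Col17a1, Col19a1 and Col23a1 were higher and Col1a2 and Col24a1 lower. Over all mice it called 4 of 44 (0.967%), namely Col9a3, Col17a1 and Col19a1 higher and Col24a1 lower. After PSD + restraint it called 4 over all mice (3.39%), 3 in females (2.56%) and 2 in males (2.51%). After restraint it called 1 over all mice, Col17a1 (0.948%), 0 in females (0.758%) and 0 in males (0.401%), and after PSD 0 in males (0.308%). Col9a3 rests on female PSD 3: its log2 fold change in females after PSD by edgeR was 2.51 (SE 0.65, adjusted p = 0.109) and 0.49 (SE 0.29, adjusted p = 0.577) without the 3 mice that stood apart.

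No collagen gene passed the tests of how treatments combine or of how the sexes differ in response. The PSD by restraint interaction called 0 of 43 (0% of all genes, and 1 of 43 had an unadjusted p under 0.05), PSD among restrained mice 0 (0.0951%, unadjusted 6), and restraint among PSD mice 0 (2.01%, unadjusted 4). Of the differences between the female and the male response, 0 of 43 were called for any of the 3 treatments (0% of all genes in each), while an unadjusted p under 0.05 was reached by 2 of 43 in the restraint response, 5 in the PSD response (2 without the 3 mice that stood apart) and 1 in the response to both. DESeq2 also called 0 collagen genes in these tests.

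The 6 lists of collagen-processing genes held 19, 12, 9, 12, 10 and 10 tested genes. Of these, 0 were called after restraint by edgeR, against 1.14% of all genes, where 4 had an unadjusted p under 0.05. DESeq2 was read for the collagen genes alone. After PSD 1 was called, against 0.671% of all genes, namely Lama4, a laminin alpha chain (log2 fold change 0.43, SE 0.08, adjusted p = 0.00638). After PSD + restraint 6 were called, against 5.46% of all genes. P3h1, a prolyl hydroxylase, was lower (-0.42, SE 0.12, adjusted p = 0.0202). Lox (0.95, SE 0.17, adjusted p = 0.000356), Timp3 (0.33, SE 0.07, adjusted p = 0.00420), Lama4 (0.36, SE 0.08, adjusted p = 0.00302), Ctsk (0.38, SE 0.10, adjusted p = 0.0132) and Ddr2 (0.33, SE 0.11, adjusted p = 0.0412) were higher. Lox cross-links collagen fibrils, Timp3 inhibits metalloproteinases, Ctsk encodes cathepsin K, which cleaves fibrillar collagen, and Ddr2 is a collagen receptor.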

How the data were processed

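Counts per gene and mouse were used as the authors deposited them. Paired-end reads of stranded mRNA libraries had been aligned by the authors (MapSplice, mm10), and HTSeq 0.9.1 in the mode intersection-nonempty had counted reads per UCSC gene model. A deposited table of normalized counts was not used. Groups and replicate numbers came from the sample labels, and each library counts as 1 mouse.

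Tests used edgeR 4.0.16 in R 4.3.3 (quasi-likelihood, TMM, filterByExpr, 18936 genes over all mice) with sex, PSD, restraint and PSD by restraint as terms, each sex alone, and 1 mean per sex and treatment, with Benjamini-Hochberg adjustment over all genes tested. TPM used mean transcript lengths of GENCODE M21, matched for 23032 genes. Alternatives were DESeq2 1.42.0 (the authors had used 1.16.1) on all genes with a count, its size factors in edgeR, no filter, mean TPM of at least 1, adjusted p alone, a score of neurointermediate lobe markers as covariate, a replicate block, and each mouse left out. The scripts were tested on simulated data. The genes, lists and tests were chosen with earlier results of these data known. Members called in a comparison, the 2 of highest TPM in each structural class, and up to 3 called genes of each list in order of p were named in full, with any further gene named after its values were seen.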

Additional observations from a re-analysis of the deposited data

Results flagged for a closer look

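In groups of 4 mice, a value was singled out where its gap to the nearest other mouse took up nearly the whole range of the group. This was tested in 145 groups for 29 named collagen genes, where chance gives about 1 in 20, and 10 values in 6 mice met it.

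In female PSD + restraint mouse 4 there were 4, namely Col11a1 at 36.1 CPM (the other mice 41.7 to 42.4), Col17a1 at 5.02 CPM (8.68 to 9.39), Col4a1 at 32.2 CPM (38.0 to 39.2) and Col6a4 at 0.694 CPM (0.224 to 0.270). Col17a1 was lowest there of its group and still above all control females. In female PSD mouse 3, Col8a1 was at 20.5 CPM (5.19 to 6.77) and Col8a2 at 28.8 CPM (5.24 to 7.06), in the library with the high Ttr. In female PSD mouse 1, Col28a1, a chain known from peripheral nerve, was at 3.12 CPM (0.647 to 0.983), in the library with the high Omp. In female PSD mouse 2, Col17a1 was at 10.5 CPM (6.03 to 6.27). In female control mouse 4, Col28a1 was at 0.656 CPM (0.588 to 0.598), a small step on few counts. In male control mouse 1, Col23a1 was at 3.74 CPM (17.9 to 20.5), in the library with low neurointermediate lobe markers. What these libraries share beyond the values given was not tested.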

How the results depend on the processing

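The 23 collagen calls kept their direction under each alternative tried. Of 159 values under alternatives other than leaving out 1 mouse 146 stayed called and 13 did not, and of 616 values with 1 mouse left out 563 stayed called and 53 did not. With all mice, the sex comparison called 14 to 18 collagen genes when a mouse was left out. For the fits with a mouse left out, the share of all genes called is not given here. Whether these counts moved more than those of other genes was thus not assessed. Restraint called 0 to 1, PSD 0 to 3, PSD + restraint 3 to 5 and the interaction 0 to 0. In females restraint called 0 to 0, PSD 0 to 6 (6 without female PSD 4) and PSD + restraint 0 to 3. In males they called 0 to 0, 0 to 0 and 1 to 2, and the response differences between the sexes 0 to 0. In females, PSD + restraint called 0 without PSD + restraint mouse 1, 2 or 3 or control mouse 4, 1 without control mouse 2, where Col24a1 was called and Col17a1 was not, 2 without PSD mouse 1 or 3 or control mouse 1 and 3 without restraint mouse 2, and in males 2 without PSD + restraint mouse 3 or control mouse 2. PSD over all mice called 3 without female PSD 4 or male PSD 1 and 2 without female control 1. Restraint called 1 without female PSD 2.

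DESeq2 called 1 for restraint and 4 for PSD over all mice, 6 for PSD and 3 for PSD + restraint in females, and 2 for PSD + restraint in males (0.948%, 0.967%, 1.60%, 2.56% and 2.51% of all genes with a count). PSD over all mice called 0 with no filter, 0 with the replicate block, 0 with the neurointermediate lobe score and 0 without the 3 mice that stood apart (chosen after seeing the data). PSD + restraint called 2 over all mice and 0 in females with that score, and in females 2 with the replicate block and 3 without the 3 mice (Col17a1, Col8a1 and Col24a1, against 2.17% of all genes). The cause was not tested. For the fits with no filter, for those with the replicate block, and for PSD with the score, the share of all genes called is not given here. Whether those counts moved more than those of other genes was thus not assessed. The replicate numbers name mice and do not pair them: over 39 same-numbered pairs of a sex, correlations of deviations ran from -0.35 to 0.33 (median -0.03). The block changed the other counts by less than 1.5 times, and with it Col23a1 after PSD + restraint (0.72, adjusted p = 0.0679), Col17a1 after PSD (0.62, adjusted p = 0.0915) and Col6a5 between the sexes (-0.66, adjusted p = 0.0992) were not called. Depth limits Col10a1, Col6a5, Col6a6 and Col22a1, with means of 3.04 to 11.4 counts, and 2 restrained males limit every test of restraint in males.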
